A study of Mus musculus with 30 samples.

Results

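Wild-type mouse motor neurons made from embryonic stem (ES) cells were described by sorting genes on 5 histone marks at their starts and reading their RNA level. A gene carried a mark where a region of the wild-type list of that mark overlapped the 2 kb window around one of its starts (1 kb to each side). Protein-coding genes with a start in the RefSeq promoter table were used, 16896 of the 45706 genes in the RNA files and 80.4% of the 21025 that matched a protein-coding RefSeq gene. They fell into 25 of the 32 possible combinations of marks, the one without any mark included, and 10 combinations held at least 100 genes. RNA came from 2 libraries of motor neurons (MN_WT, wild-type genotype, day 6 of induction) and from 2 libraries of wild-type ES cells (ES_WT). Motor neurons were induced through embryoid bodies cultured with shaking. They received RA (retinoic acid) and SAG, which activates Smoothened, each at 1 µM from day 2, and from day 4 also DOX (doxycycline) at 1 µM and DAPT, an inhibitor of Notch cleavage, at 5 µM. What doxycycline acted on is not stated in the labels, and nothing in them says whether the 2 libraries of a group came from separate cultures, so p-values measure only the spread between these libraries. ES cells were kept in medium with serum and LIF, a factor that holds them pluripotent. The marks were mapped by ChIP-seq in the motor neurons alone, with 2 libraries for each mark and 1 for H3K9me3, so a comparison with ES_WT sets motor neuron marks beside ES cell RNA.

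H3K4me3 (called K4me3 here) is the mark of active and poised promoters, H3K4me1 flanks promoters and lies on enhancers, and H3K27ac is found at promoters and enhancers in use. H3K27me3 is laid down by Polycomb repressive complex PRC2 and is known for covering the CpG-rich promoters of developmental genes that are silent in a cell, often together with K4me3 in ES cells, a state called bivalent. H3K9me3 is the mark of constitutive heterochromatin, repeats, imprinted control regions and silenced germline genes. Acetylation and methylation of lysine 27 exclude each other on one histone tail, while a list from many cells can hold both at one place. The lists come from bulk chromatin, so alleles, cells and neighbouring nucleosomes that carry different marks cannot be told apart.

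The 4 RNA libraries held 13.9 M expected counts each in MN_WT, against 53.2 and 51.3 M in ES_WT. Markers fixed for motor neurons (8 genes) summed to 1821 and 1492 TPM (transcripts scaled to library size) in MN_WT and to 5.82 and 6.15 TPM in ES_WT, and 7 ES cell markers summed to 139 and 151 TPM in MN_WT against 6894 and 6200 TPM in ES_WT. Of other cell types, 5 trophoblast markers reached 410 and 371 TPM in MN_WT and 4.39 and 5.00 TPM in ES_WT. The 5 endoderm markers reached 13.3 and 10.1 TPM in MN_WT and 1.8 and 3.5 TPM in ES_WT. The 5 glial markers reached 17.2 and 18.4 TPM in MN_WT and 2.06 and 2.14 TPM in ES_WT. Mbp alone held 15.0 and 16.4 TPM of the glial sums in MN_WT. Aqp4 was also higher there, Gfap and Olig1 were lower, and Sox10 was under 1 TPM in each library. The 5 neural progenitor markers summed to 48.9 and 39.7 TPM in MN_WT and 241 and 209 TPM in ES_WT. Of the ES_WT sums, 237 and 198 TPM were Sox2, which is also a factor of ES cells. Nkx6-1, Nes, Olig2 and Hes5 were higher in both MN_WT libraries than in either ES_WT library, Olig2 and Hes5 at under 1 TPM. The 5 mesoderm and 5 blood markers summed to between 3.34 and 21.3 TPM in each library. In the motor neuron cultures the blood markers Ptprc and Hbb-bt were listed at 0. The edgeR quasi-likelihood test at a Benjamini-Hochberg adjusted p under 0.05 called 6586 of 17479 tested genes (37.7%) higher in MN_WT and 6776 (38.8%) lower. The log2 fold changes use TMM scaling, on which the median tested gene stood at -0.07. On the log2(TPM + 1) scale the same median was 0.44, and 64.8% of tested genes were above 0, against 48.4% with TMM scaling. Of the genes called higher, 6584 were also positive on the TPM scale, and of those called lower, 5710 were also negative there.

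Starts of 5 genes that the results turn on show how the marks were laid out, with 300 bases of RefSeq sequence (GRCm38.p6, the mm10 build, 250 bases before and 50 after the start, on the strand of the gene) and CpG dinucleotides in capitals. Eef1a1, translation elongation factor 1 alpha, stands for housekeeping promoters with K4me3, K27ac and K4me1, and its window is chr9:78481675-78481974 (minus strand) with 22 CpG.
Eef1a1: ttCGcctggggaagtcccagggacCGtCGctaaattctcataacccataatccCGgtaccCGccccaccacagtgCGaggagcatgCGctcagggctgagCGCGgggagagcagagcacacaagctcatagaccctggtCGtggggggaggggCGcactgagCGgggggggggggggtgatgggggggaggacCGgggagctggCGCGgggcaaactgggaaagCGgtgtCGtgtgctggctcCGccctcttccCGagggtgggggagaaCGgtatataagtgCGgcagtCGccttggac
Tubb3, the neuronal beta-tubulin, stands for starts that carry K27me3 beside the 3 active marks, and its window is chr8:123411303-123411602 (plus strand) with 26 CpG.
Tubb3: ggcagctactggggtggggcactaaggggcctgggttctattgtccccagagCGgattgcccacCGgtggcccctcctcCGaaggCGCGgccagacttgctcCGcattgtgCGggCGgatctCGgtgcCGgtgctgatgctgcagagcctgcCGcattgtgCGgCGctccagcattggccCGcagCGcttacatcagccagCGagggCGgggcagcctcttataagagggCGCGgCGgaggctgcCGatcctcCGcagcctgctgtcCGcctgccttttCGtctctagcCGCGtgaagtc
Mnx1, the homeodomain factor that defines motor neurons, had K4me3, K27ac and K27me3, and its window is chr5:29478421-29478720 (minus strand) with 26 CpG.
Mnx1: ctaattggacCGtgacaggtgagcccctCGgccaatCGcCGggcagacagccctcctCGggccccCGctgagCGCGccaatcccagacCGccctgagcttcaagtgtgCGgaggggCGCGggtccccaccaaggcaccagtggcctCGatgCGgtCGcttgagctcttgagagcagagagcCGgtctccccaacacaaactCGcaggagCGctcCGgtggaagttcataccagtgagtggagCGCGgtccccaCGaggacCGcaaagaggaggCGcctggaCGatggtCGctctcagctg
Crabp1, a cytoplasmic retinoic acid binding protein, was the most abundant RNA among starts with K4me3, K4me1, K27me3 and K9me3, and its window is chr9:54764498-54764797 (plus strand) with 17 CpG.
Crabp1: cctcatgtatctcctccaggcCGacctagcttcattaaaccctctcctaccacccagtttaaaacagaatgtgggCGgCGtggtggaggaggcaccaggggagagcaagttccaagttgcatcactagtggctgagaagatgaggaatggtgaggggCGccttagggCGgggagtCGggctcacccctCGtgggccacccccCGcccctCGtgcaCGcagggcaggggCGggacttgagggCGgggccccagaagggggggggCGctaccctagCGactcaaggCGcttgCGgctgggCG
Pou5f1 (Oct4), the pluripotency factor, had K27me3 alone, was chosen for display after its values were seen, and has 11 CpG in the window chr17:35505782-35506081 (plus strand) of the first of its listed starts.
Pou5f1: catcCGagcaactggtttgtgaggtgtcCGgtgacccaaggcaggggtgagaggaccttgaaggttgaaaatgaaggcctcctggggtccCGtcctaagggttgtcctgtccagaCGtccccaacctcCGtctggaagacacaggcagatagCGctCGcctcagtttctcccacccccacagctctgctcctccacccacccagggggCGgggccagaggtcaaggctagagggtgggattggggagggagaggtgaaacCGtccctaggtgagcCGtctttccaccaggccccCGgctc
At the Mnx1 start the K27ac region was 21815 bp wide and the K4me3 region 14635 bp, and a K27me3 region of 1207 bp lay from -313 to 893 bp relative to the start. The K27me3 region at Tubb3 was 5199 bp wide and covered the start, as did the K4me3 and K27ac regions there. At Pou5f1 the K27me3 region reached from -389 to 2345 bp relative to the start, with no region of K4me3, K27ac or K9me3 within the 1 kb on each side. The K9me3 region at Crabp1 began 754 bp after the start, inside the K27me3 region.

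**Figure D1:**
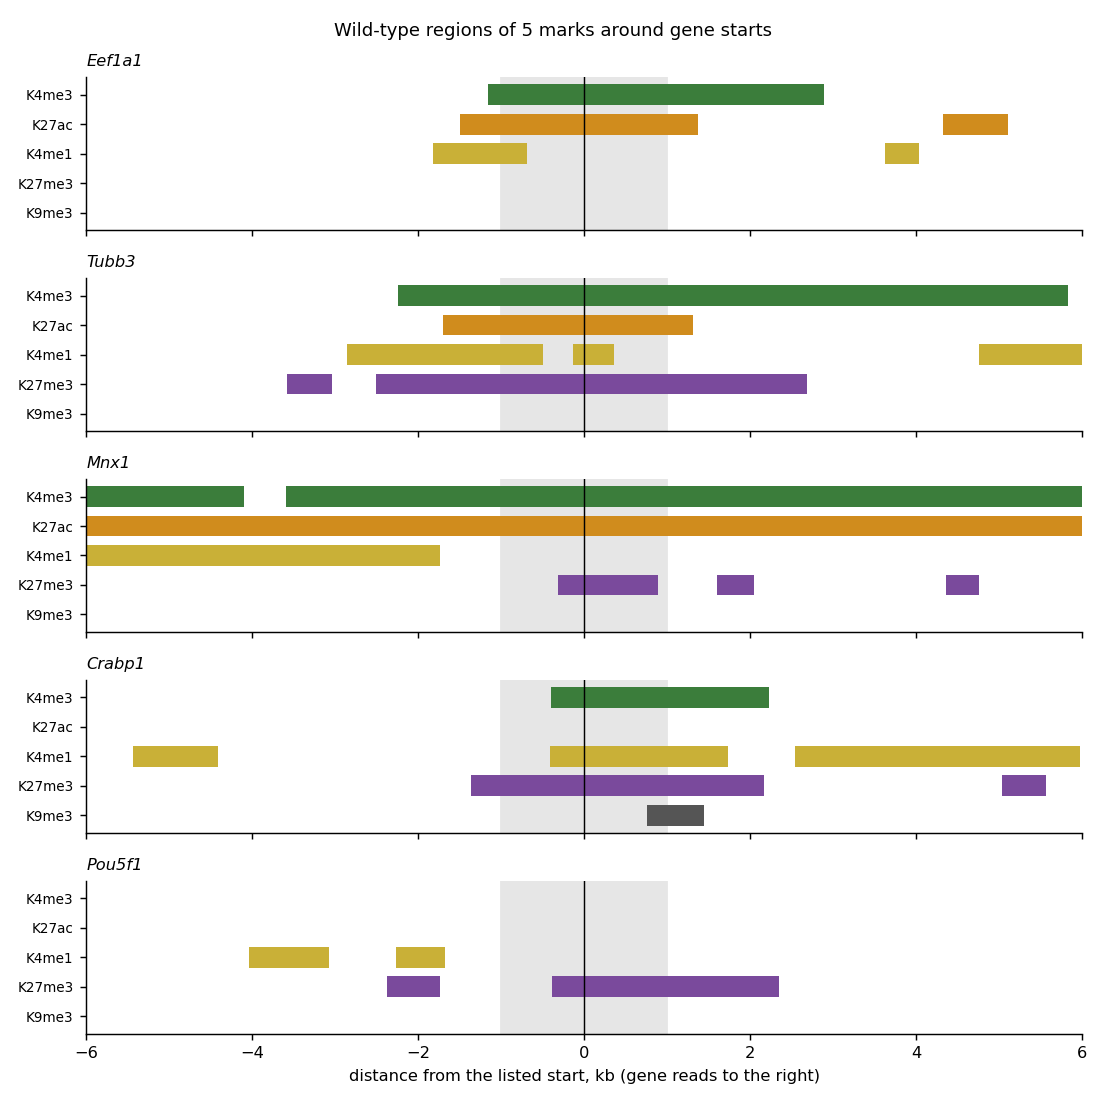
Regions of the 5 wild-type lists (bars, 1 row per mark) around the listed starts of Eef1a1, Tubb3, Mnx1, Crabp1 and Pou5f1, as distance from the start in kb with the gene reading to the right; the grey band is the 1 kb to each side used to assign marks, and regions run on past the plotted 6 kb. K27ac and K27me3 overlap at Tubb3 and at Mnx1, and Pou5f1 has K27me3 alone within the band.

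K4me3 was at 64.6% of the 16896 starts, K4me1 at 61.9%, K27ac at 46.5%, K27me3 at 18.1% and K9me3 at 7.02%. With the starts moved by 100 kb the shares were 7.66% for K4me3, 18.5% for K4me1, 4.58% for K27ac, 3.30% for K27me3 and 3.43% for K9me3. K27ac was seldom without K4me3: 99.6% of the 7858 starts with K27ac had K4me3 too, as did 97.1% of the 3065 starts with K27me3. Of the 1186 starts with K9me3, 85.2% carried K27me3, against 18.1% of all starts. All 19174 regions of the K27ac list have names that read K27ac_KO, while its label says wild type, and the label was followed. Regions of low confidence weighed on K9me3 most. With regions of a -log10 q of at least 5 alone, 177 starts carried K9me3, 2002 carried K27me3 and 6907 carried K27ac.

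RNA levels in motor neurons ran from a median of 0 TPM at starts without a mark to over 30 TPM at starts with K4me3 and K27ac. The 6033 genes with K4me3, K27ac and K4me1 had medians of 35.4 and 34.2 TPM in the 2 MN_WT libraries, against 21.5 and 21.1 TPM in ES_WT, and their mean level was 76.8 ± 1.15 TPM in MN_WT and 74.97 ± 1.45 TPM in ES_WT (SD, n = 2 libraries each, here and below). The 683 genes with K4me3 and K27ac had medians of 35.8 and 34.8 TPM in MN_WT, against 20.4 and 21.0 TPM in ES_WT. At least 1 TPM in both MN_WT libraries was found for 97.8% of the first and 97.5% of the second of these combinations, against 61.6% of all grouped genes. Without K27ac the levels were lower. Medians were 6.95 and 6.68 TPM in MN_WT and 4.8 and 4.94 TPM in ES_WT for the 913 genes with K4me3 and K4me1, and 4.63 and 4.28 TPM in MN_WT and 2.43 and 2.59 TPM in ES_WT for the 215 genes with K4me3 alone.

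Starts with K27me3 covered nearly the whole range of RNA levels, split by whether K27ac was also there. The 874 genes with K4me3, K27ac, K4me1 and K27me3 had medians of 21.6 and 20.8 TPM in MN_WT, against 3.79 and 3.53 TPM in ES_WT, and mean levels of 45.9 ± 2.03 TPM in MN_WT and 18.9 ± 0.928 TPM in ES_WT. The 132 genes with all 5 marks had medians of 18.8 and 17.7 TPM in MN_WT and 2.27 and 2.36 TPM in ES_WT. Without K27ac, the 1000 genes with K4me3, K4me1 and K27me3 had medians of 2.28 and 2.25 TPM in MN_WT and 0.935 and 0.98 TPM in ES_WT. Their mean levels stood the other way round, 8.99 ± 0.038 TPM in MN_WT and 12.4 ± 0.374 TPM in ES_WT, and this combination holds ES cell genes such as Tdgf1 and Dnmt3l. With K9me3 added to these marks, 829 genes had medians of 0.73 and 0.70 TPM in MN_WT and 0.39 and 0.45 TPM in ES_WT. The 563 genes with K4me1 alone had medians of 0.40 TPM in both MN_WT libraries and 0.16 TPM in both ES_WT libraries.

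**Figure D2:**
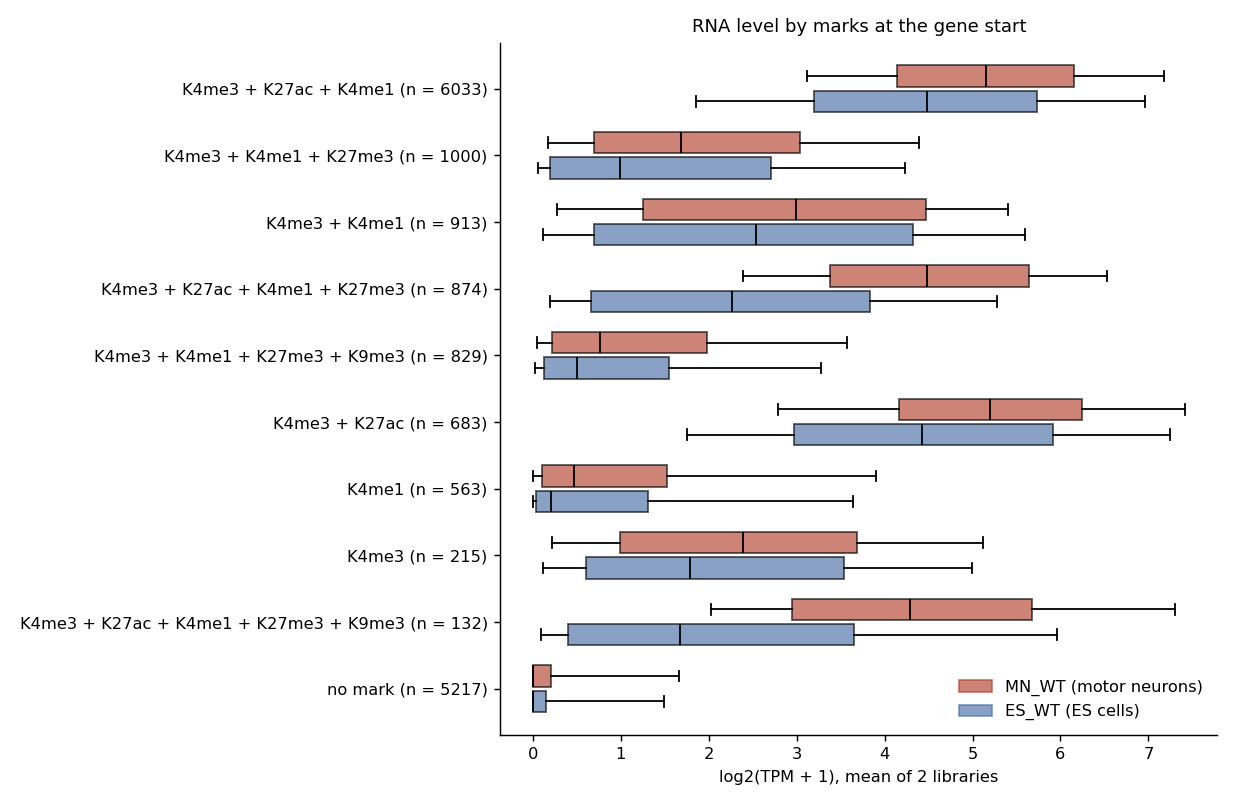
RNA level as log2(TPM + 1), mean of 2 libraries, in MN_WT (red, upper box of each pair) and ES_WT (blue, lower box) for the 10 combinations with at least 100 genes; boxes are quartiles with the median as a line and whiskers reach the 10th and 90th percentiles over genes. The boxes of starts with K27ac stand highest in MN_WT, and the distance between MN_WT and ES_WT is widest for the 874 genes with K4me3, K27ac, K4me1 and K27me3 and the 132 genes with all 5 marks.

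Combinations differed in the share of tested genes called higher in MN_WT. Among the 11896 grouped genes that passed the filter on low counts, 39.9% were called higher and 38.2% lower, and 7.2% were called at least 16-fold higher. Of the 870 tested genes with K4me3, K27ac, K4me1 and K27me3, 616 (70.8%) were called higher, 140 (16.1%) lower and 26.9% at least 16-fold higher, with a median log2 fold change of 1.87. Of the 131 tested genes with all 5 marks, 92 (70.2%) were called higher and 22 lower. Among the 868 tested genes with K4me3, K4me1 and K27me3, 390 (44.9%) were called higher and 285 (32.8%) lower, with a median of 0.39, and among the 615 tested with K9me3 as well, 222 (36.1%) were called higher and 234 (38.0%) lower. The 5978 tested genes with K4me3, K27ac and K4me1 stood near the background, with 37.7% called higher, 40.3% lower and a median of -0.07. On the TPM scale 70.0% of these genes were above 0, against 47.8% with TMM scaling, while for the 870 genes with K27me3 beside the active marks the shares were 85.9% and 76.6%. Genes could pass the filter through the group where they are high, which favours calls in that direction. Over all members, tested or not, 98.2% of the 874 genes reached 1 TPM in both MN_WT libraries and 67.4% in both ES_WT libraries. Without the K27ac list, starts with K4me3, K4me1 and K27me3 numbered 1874.

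**Figure D3:**
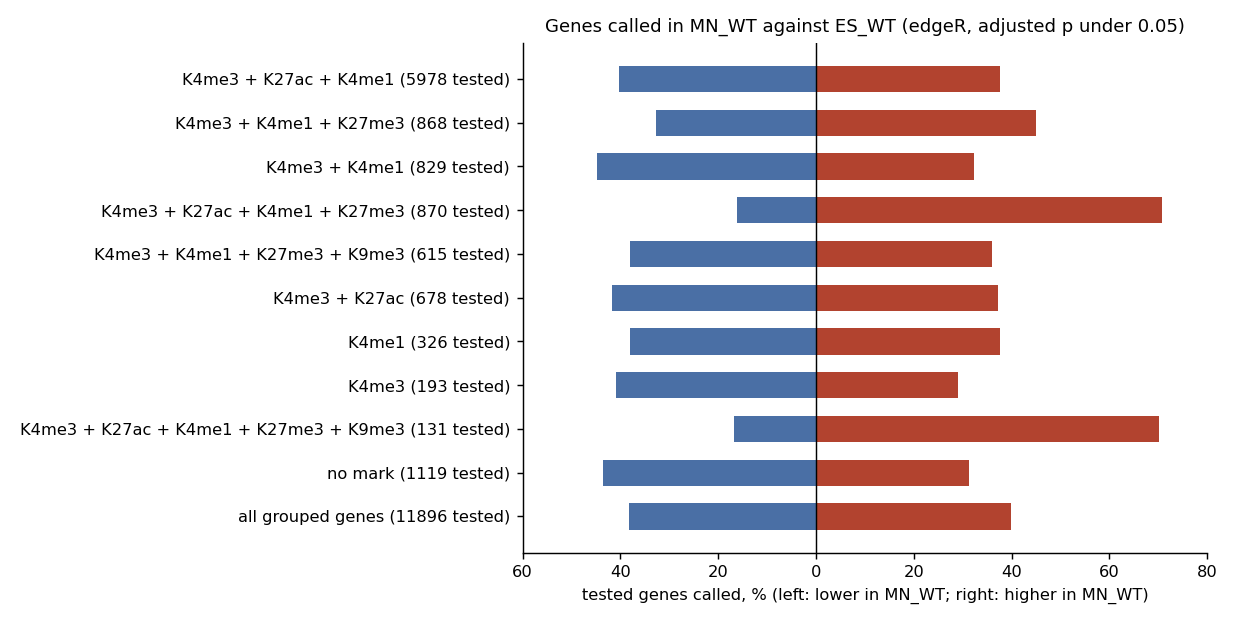
Share of tested genes called higher in MN_WT (right, red) and lower in MN_WT (left, blue) by edgeR at an adjusted p under 0.05, for the 10 combinations with at least 100 genes, with all grouped genes as the bottom bar. Both combinations that hold K27ac and K27me3 together have over 70% called higher, against 39.9% of all grouped genes.

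In the full lists, most spinal motor neuron genes had both K27ac and K27me3, counted over all listed starts of a gene. Of 17 grouped members of that list, all had K4me3, 15 had K27me3, 14 had K27ac and 12 had both. All 17 were called higher in MN_WT, against 39.9% of grouped genes. In MN_WT 16 of them reached 1 TPM in both libraries, and in ES_WT 4 did. Members could thus pass the filter on low counts through MN_WT alone. Mnx1 had 395 and 343 TPM in MN_WT and 0.36 and 0.29 TPM in ES_WT, and its log2 fold change was 9.52 ± 0.15 (SE, edgeR adjusted p = 6.56e-07). Isl1, the LIM homeodomain factor that acts with Lhx3 to set motor neuron identity, had 363 and 283 TPM in MN_WT and 0.82 and 1.29 TPM in ES_WT, with the same 3 marks. Both groups were far apart at these genes, and no MN_WT value came near an ES_WT value. Lhx3 itself had 320 and 292 TPM in MN_WT and 0.43 and 0.30 TPM in ES_WT, and like Isl2 it carried all 5 marks. Slc18a3, the vesicular acetylcholine transporter, had 350 and 310 TPM in MN_WT and 0.47 and 0.27 TPM in ES_WT. Its gene lies inside Chat, which codes for choline acetyltransferase and had 118 and 86.8 TPM in MN_WT and 0.06 and 0.03 TPM in ES_WT, so reads and regions of the pair may be shared. Slit2, an axon guidance ligand, had 626 and 582 TPM in MN_WT and 1.18 and 1.02 TPM in ES_WT. With regions of a -log10 q of at least 5, 5 of the 17 genes had K27ac and K27me3 together, 12 had K27ac and 9 had K27me3.

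General neuronal genes had K27ac more often than K27me3. Of 12 grouped pan-neuronal genes, 11 had K27ac and 6 had K27me3 as well. All 12 were called higher, against 39.9% of grouped genes. K27ac was at 11 and K27me3 at 3 of them with regions of a -log10 q of at least 5. Tubb3 had 1703 and 1603 TPM in MN_WT and 68.7 and 49.3 TPM in ES_WT (log2 fold change 4.13 ± 0.17, SE, edgeR adjusted p = 3.34e-06). Ina, an intermediate filament of neurons, had 1242 and 1129 TPM in MN_WT and 43.2 and 43.9 TPM in ES_WT. Dcx, a microtubule protein of migrating neurons, had 310 and 308 TPM in MN_WT and 0.01 and 0.03 TPM in ES_WT and carried K4me3 and K27ac without K27me3. Among axon guidance genes, 30 of 46 had K27ac, 23 had K27me3 and 13 had both, with 33 called higher and 5 lower among 45 tested, against 39.9% higher and 38.2% lower of grouped genes. Genes that fell were also found at starts with K27ac and K27me3. Sox2, a factor of ES cells and neural progenitors, had 5.67 and 3.51 TPM in MN_WT and 237 and 198 TPM in ES_WT. Mybl2, a cell cycle factor, had 30.4 and 31.8 TPM in MN_WT and 422 and 313 TPM in ES_WT.

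Most members of the housekeeping lists had K4me3 and K27ac without K27me3. Of 63 ribosomal protein genes 59 had K27ac and none had K27me3, and of 64 nuclear genes of oxidative phosphorylation 60 had K27ac and 1 had K27me3. Of the ribosomal protein genes 62 of 63 tested were called lower in MN_WT (38.2% of grouped genes were), and all 62 were also lower on the TPM scale, though near-identical copies of such genes can split reads. Among the oxidative phosphorylation genes 53 of 63 tested were called lower, against the same 38.2%. Of these 53, 25 were lower on the TPM scale and 51 were below the median of all tested genes there. The direction of this list thus depended on scaling, with a median log2 change of -0.56 with TMM scaling and 0.10 on the TPM scale. Eef1a1 had 7443 and 7352 TPM in MN_WT and 9048 and 8497 TPM in ES_WT. Tuba1a, an alpha-tubulin of young neurons, had 7351 and 7227 TPM in MN_WT and 562 and 589 TPM in ES_WT, and its log2 fold change was 3.24 ± 0.09 (SE, edgeR adjusted p = 1.19e-06).

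Cell cycle genes had active marks in motor neurons and lower RNA there than in ES cells. Of 18 grouped members 17 had K4me3, 15 had K27ac and 1 had K27me3. All 18 were called lower on the TMM scale, against 38.2% of grouped genes. All 18 were also lower on the TPM scale, as were 6160 of all 17479 tested genes. Cdk1, the kinase of mitotic entry, had 128 and 138 TPM in MN_WT and 310 and 294 TPM in ES_WT. Pcna, the sliding clamp of DNA replication, had 92.0 and 89.5 TPM in MN_WT and 327 and 288 TPM in ES_WT. Their level in MN_WT was well above 0, and in a bulk culture fewer dividing cells and less RNA per cell cannot be told apart.

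Pluripotency genes were without K27ac for the most part and had K27me3. Of 16 grouped members 14 had K27me3 and 4 had K27ac, and all 16 were called lower, against 38.2% of grouped genes. At a -log10 q of at least 5, K27me3 was at 9 and K27ac at 3. Pou5f1 had 11.5 and 13.5 TPM in MN_WT and 1605 and 1454 TPM in ES_WT, a log2 fold change of -7.69 ± 0.12 (SE, edgeR adjusted p = 6.56e-07). Nanog, its partner in the pluripotency network, had 4.15 and 3.02 TPM in MN_WT and 227 and 138 TPM in ES_WT. Tcl1, a cofactor of the kinase AKT, had 0.85 and 0.11 TPM in MN_WT and 89.95 and 45.2 TPM in ES_WT. These 3 genes belong to the 50 that carried K27me3 and none of the other marks, whose mean level was 1.46 ± 0.090 TPM in MN_WT and 37.8 ± 4.05 TPM in ES_WT. The medians of these 50 genes were near 0, 0.145 and 0.10 TPM in MN_WT and 0.125 and 0.165 TPM in ES_WT. Tdgf1, a Nodal co-receptor, had 1.20 and 2.16 TPM in MN_WT and 570 and 625 TPM in ES_WT with K4me3 and K4me1 beside K27me3, as did Dnmt3l, a cofactor of DNA methylation, with 4.55 and 4.18 TPM in MN_WT and 375 and 366 TPM in ES_WT. Zfp42 (Rex1) had 17.9 and 18.9 TPM in MN_WT and 471 and 344 TPM in ES_WT, with K4me3, K27me3 and K9me3.

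Not every start in the K27me3 class was annotated where its marks lie. The most abundant RNA among the 50 genes with K27me3 alone was Ntng2, a netrin-like membrane protein, with 18.3 and 16.7 TPM in MN_WT and 0.13 and 0.17 TPM in ES_WT. A K4me3 region of 4080 bp ended at -1731 bp relative to its listed start, and the K27me3 region at -984 bp.

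Transcription factors of other neuron types carried K4me3, K4me1, K27me3 and K9me3 together. All 22 grouped interneuron factors had these 4 marks, and 2 of them, Gata3 and Lhx1, had K27ac as well. Their median level was 0.165 and 0.17 TPM in MN_WT and 0.205 and 0.195 TPM in ES_WT. Of 13 tested, 7 (53.8%) were called higher and 4 (30.8%) lower, against 39.9% and 38.2% of grouped genes. No difference is drawn from so few genes. In MN_WT 8 of the 22 reached 1 TPM in both libraries, and in ES_WT 2 did. Gata2, a zinc finger factor of V2b interneurons, was one of those without K27ac, at 42.5 and 55.6 TPM in MN_WT and 1.66 and 0.87 TPM in ES_WT. Foxd3, which acts in ES cells, neural crest and V1 interneurons, had 0.06 and 0.11 TPM in MN_WT and 16.8 and 16.3 TPM in ES_WT. With regions of a -log10 q of at least 5, K27me3 was still at all 22 starts, K9me3 at 6 and K27ac at none. Progenitor factors of the neural tube had K27me3 at 16 of 17 starts, K27ac at 4 and K9me3 at 8, and with regions of a -log10 q of at least 5 at 16, 3 and 1. Nkx6-1, which sets the ventral progenitor domains, had K27ac, with 29.3 and 23.8 TPM in MN_WT and 0.01 and 0.03 TPM in ES_WT. Olig2, the factor of motor neuron progenitors, had no K27ac, with 0.44 and 0.54 TPM in MN_WT and 0.03 TPM in both ES_WT libraries.

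Many starts of secreted signals, channels and receptors had K27me3. Of 38 Wnt, Bmp and Fgf ligands, 30 had K27me3 and 7 had K27ac, with medians of 0.46 and 0.49 TPM in MN_WT and 0.265 TPM in both ES_WT libraries. Neuropeptide precursors had K27me3 at 14 of 19 starts and K27ac at none. Sst, the somatostatin precursor, had 5.98 and 4.51 TPM in MN_WT and 0 and 0.12 TPM in ES_WT. Cartpt, the precursor of the CART peptides, had 18.0 and 16.6 TPM in MN_WT and was listed at 0 in both ES_WT libraries. Trh, the precursor of thyrotropin-releasing hormone, had 0.82 and 1.11 TPM in MN_WT and 445 and 431 TPM in ES_WT. All 6 grouped genes of GABA and glycine transmission had K27me3 and none had K27ac, and of these 2 were called higher and 2 lower, near the shares of grouped genes (39.9% and 38.2%). Voltage-gated channel genes had K27me3 at 20 of 28 starts and K27ac at 9, and 17 of 20 tested were called higher, against 39.9% of grouped genes. Transmitter receptor genes had K27me3 at 38 of 64 starts and K27ac at 16, and 34 of 42 tested were called higher, where 39.9% of grouped genes were. Counts over tested genes of these low-level lists leave out the members under the filter. Of the 28 channel genes, 15 reached 1 TPM in both MN_WT libraries and 2 in both ES_WT libraries. Of the 64 receptor genes, 27 and 7 did. Members could thus pass the filter through MN_WT alone, so these calls add little to the levels.

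RNA was high at some starts with K27me3 and no K27ac. Krt18, a keratin of simple epithelia, had 479 and 600 TPM in MN_WT and 17.5 and 22.3 TPM in ES_WT with K4me3, K4me1 and K27me3. Sparc, a matrix glycoprotein, had 241 and 237 TPM in MN_WT and 78.9 and 92.0 TPM in ES_WT. Crabp1 had 915 and 786 TPM in MN_WT and 19.3 and 18.2 TPM in ES_WT (log2 fold change 4.82 ± 0.12, SE, edgeR adjusted p = 9.19e-07). Gjb2, a gap junction protein of epithelia, had 140 and 158 TPM in MN_WT and 0.08 and 0.32 TPM in ES_WT. The trophoblast list held 15 grouped genes, of which 13 were called higher in MN_WT and 2 lower, against 39.9% and 38.2% of grouped genes. In MN_WT 12 of the 15 reached 1 TPM in both libraries, and in ES_WT 1 did. Members could thus pass the filter on low counts through MN_WT alone. No mark was at the start of 12 of the 15, against 30.9% of all grouped genes. Tpbpa, the trophoblast marker, had 256 and 203 TPM in MN_WT and was listed at 0 in both ES_WT libraries, and Ctsj, a placental cathepsin, had 115 and 121 TPM in MN_WT and was listed at 0 in ES_WT. Among endoderm genes, 6 of 8 tested were called higher in MN_WT and 1 lower. The part of trophoblast or endoderm cells in the levels of genes with K27me3 and no K27ac was not tested.

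Hox genes, which give motor neurons their position along the body axis, divided by paralog number among the 22 of 39 that were grouped. The grouped genes of paralogs 9 to 13 were all from the HoxA and HoxD clusters, and HoxC had Hoxc4 alone. Of the 22 grouped Hox genes, all 9 of paralogs 9 to 13 had K27me3 and K9me3 and none had K27ac, with mean levels from 0 to 0.63 TPM in MN_WT. Among the 5 genes of paralogs 5 to 8, 4 had K27ac and all 5 had K27me3, with mean levels from 7.25 to 191 TPM in MN_WT. Among the 8 of paralogs 1 to 4, 4 had K27ac and 5 had K27me3, with mean levels from 2.78 to 128 TPM. Hoxa5 had 187 and 195 TPM in MN_WT and 0.20 and 0.12 TPM in ES_WT, and Hoxb8 had 140 and 156 TPM in MN_WT and 0.20 and 0.18 TPM in ES_WT, both with K4me3, K27ac, K4me1 and K27me3. Hoxc4 had 136 and 120 TPM in MN_WT and 0.15 and 0.06 TPM in ES_WT with K4me3, K27ac and K4me1 and no K27me3. Hoxa3, with K4me3, K4me1, K27me3 and K9me3, had 30.6 and 31.9 TPM in MN_WT and 0.17 and 0.09 TPM in ES_WT. Of the 15 Hox genes tested, 14 were called higher and 1 lower, against 39.9% and 38.2% of grouped genes. In MN_WT 13 of the 22 reached 1 TPM in both libraries, and in ES_WT 0 did. Members could thus pass the filter on low counts through MN_WT alone, so these calls add little to the levels. Of the 22, 8 had K9me3 with regions of a -log10 q of at least 5 (13 otherwise), 16 had K27me3 and 7 had K27ac.

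**Figure D4:**
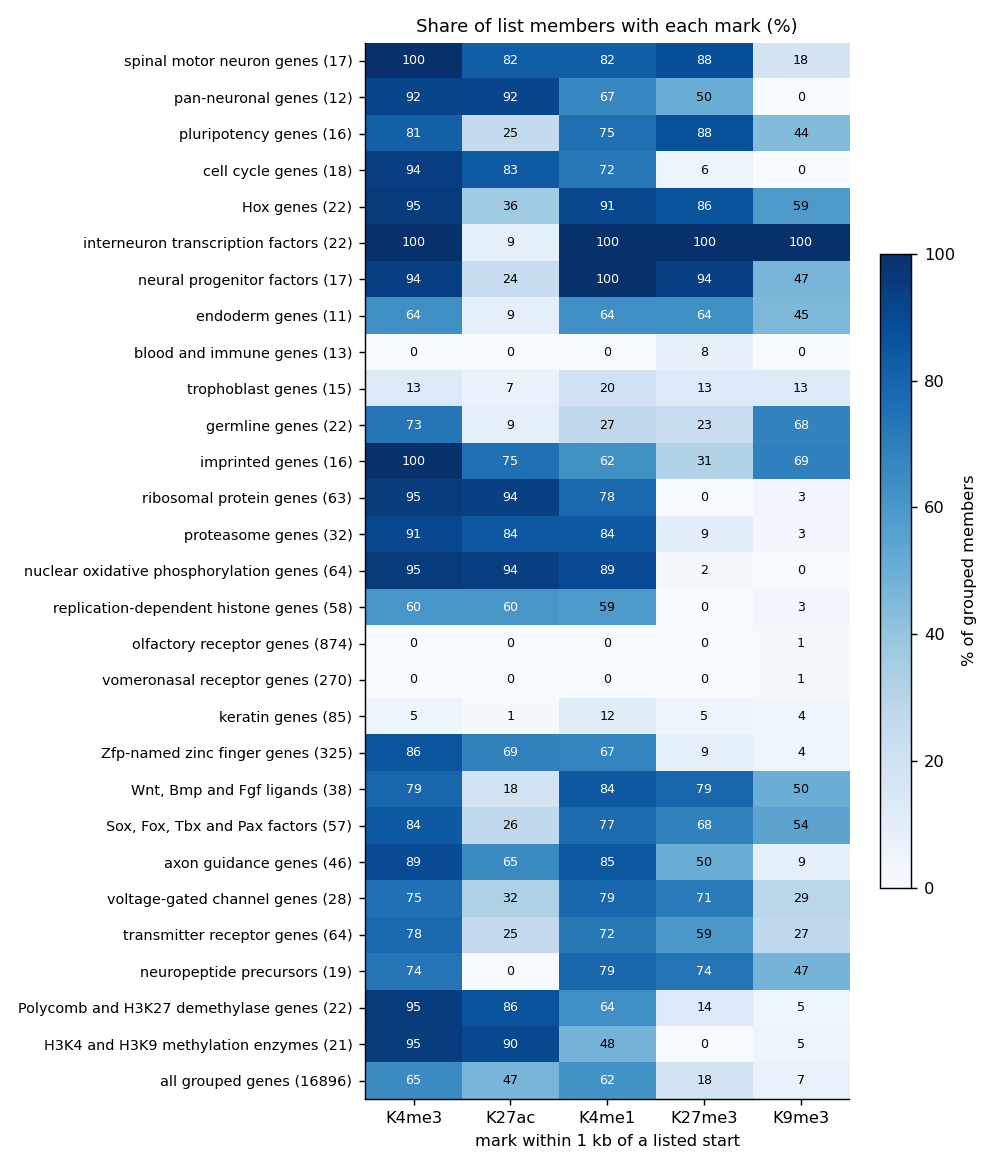
Share of the grouped members of each gene list (number of members in brackets, lists of at least 10) with each of the 5 marks, in percent, with all 16896 grouped genes as the last row. Interneuron factors have 4 marks at all 22 starts, ribosomal protein genes have no K27me3, and K9me3 is at 68% of germline and 69% of imprinted genes and at 59% of Hox genes, against 7% of all grouped genes.

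K9me3 occurred in 2 settings. At 1010 starts it came with K27me3, where K27me3 regions were wide (median 3927 bp, against 1687 bp at the 1061 starts with K4me3, K27ac and K27me3) and shared bases with the K9me3 region at 98.0% of starts. There a median of 100% of the bases of the K9me3 region lay inside K27me3. K9me3 without K27me3 was at 176 starts, with medians of 1.11 and 1.03 TPM in MN_WT and 0.455 and 0.495 TPM in ES_WT. Its list comes from 1 library, and the median fold enrichment that the authors list for its regions at starts was 4.00, against 8.35 for K27me3 at the starts that have both.

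Germline genes, which DNA methylation and H3K9 methylation are known to silence in the soma, had K9me3 at 15 of 22 starts, against 7.02% of all starts, and K27me3 at 5. Dazl, an RNA-binding protein of germ cells, had K4me3 and K9me3, with 13.03 and 11.3 TPM in MN_WT and 1.97 and 1.36 TPM in ES_WT. Ddx4, the germ cell helicase Vasa, had K4me3, K27me3 and K9me3, with 2.65 and 2.20 TPM in MN_WT and 8.89 and 8.71 TPM in ES_WT. Of 21 germline genes tested, 4 were called higher and 13 lower (39.9% and 38.2% of grouped genes were), and 11 of the 13 were lower on the TPM scale. Imprinted genes, which are read from 1 parental allele, had K9me3 at 11 of 16 starts, K4me3 at all 16 and K27ac at 12. Peg3 and Snrpn had K4me3, K27ac and K9me3. Peg3, a zinc finger protein, had 133 and 130 TPM in MN_WT and 11.7 and 15.0 TPM in ES_WT. Snrpn had 374 and 316 TPM in MN_WT and 108 and 132 TPM in ES_WT. Nnat, a small membrane protein of neurons, had 486 and 284 TPM in MN_WT and 5.85 and 3.98 TPM in ES_WT with K4me3 and K9me3. Gnas, a G protein subunit, and Igf2, a growth factor, carried all 5 marks. Gnas had 2090 and 1905 TPM in MN_WT and 162 and 180 TPM in ES_WT, and Igf2 had 826 and 966 TPM in MN_WT and 6.63 and 4.40 TPM in ES_WT. With regions of a -log10 q of at least 5, 8 germline and 6 imprinted genes had K9me3, against 1.05% of all starts.

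Starts with K4me1 alone, or with no mark, were mostly silent, with exceptions. Cyp26b1, the enzyme that clears retinoic acid, had K4me1 alone and 96.9 and 192 TPM in MN_WT against 0.07 and 0.10 TPM in ES_WT. Ifitm1, an interferon-induced membrane protein, had K4me1 alone too, with 7.83 and 5.89 TPM in MN_WT and 606 and 641 TPM in ES_WT. K27ac without K4me3 was found at 31 starts, all with K4me1. Olfm1, a secreted glycoprotein of neurons, was the highest of them at 263 and 227 TPM in MN_WT and 2.01 and 3.26 TPM in ES_WT. No mark was listed at 865 of 874 olfactory receptor genes, 267 of 270 vomeronasal receptor genes, 72 of 85 keratin genes and 12 of 13 blood and immune genes. Medians in all 4 libraries were 0 TPM for olfactory receptors, vomeronasal receptors and keratins. Of the 5217 genes without a mark, 4541 had a mean under 1 TPM in MN_WT and 676 reached it.

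Some of these 676 genes are housekeeping genes with no entry near their start in the lists used here. Actg1, cytoplasmic gamma-actin, had 3472 and 3421 TPM in MN_WT and 1474 and 1549 TPM in ES_WT, and the nearest region of any mark lay 9.27 kb from its start. Eef2, elongation factor 2, had 1570 and 1508 TPM in MN_WT and 1204 and 1163 TPM in ES_WT, with the nearest region at 9.30 kb. Rps25, a ribosomal protein gene, had 812 and 875 TPM in MN_WT and 1864 and 1932 TPM in ES_WT, and its nearest region, at 1.34 kb, lay just past the 1 kb used. Of the 676 genes, 65.4% were over 10 kb from the nearest region of any mark, against 75.2% of the 4541 with lower RNA. So "no mark" means no entry in these lists, and with genes over 10 kb from every region left out, 1359 genes remained in this group.

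Within a class of marks, RNA level went with the strength of K27ac. Genes with K4me3, K27ac and K27me3 were ranked by the fold enrichment that the authors list for their K27ac region and split into 3 groups of equal size. Medians in the 2 MN_WT libraries were 14.2 and 13.8 TPM in the lowest group, 21.2 and 20.01 TPM in the middle and 35.6 and 33.0 TPM in the highest, and in the first ES_WT library they were 3.05, 3.53 and 4.00 TPM. Ranked by the width of the K27ac region, the medians were 13.1 and 13.2, 20.4 and 18.3, and 41.4 and 36.9 TPM in MN_WT. Ranked by K27me3 enrichment, the same genes had medians of 23.8 and 23.5, 21.1 and 20.8, and 19.7 and 18.4 TPM in MN_WT. Ranked by the width of the K27me3 region they had medians of 25.3 and 23.9, 17.7 and 17.3, and 22.5 and 21.3 TPM in MN_WT, lowest in the middle group. Among the 1914 genes with K4me3 and K27me3 and no K27ac, K27me3 enrichment went with less RNA, with medians of 2.03 and 1.78 TPM in the lowest group, 1.51 and 1.46 TPM in the middle and 0.91 and 0.87 TPM in the highest. Within these genes, K4me3 enrichment went with more, with medians of 0.50 and 0.535, 1.36 and 1.32, and 3.02 and 3.12 TPM. Those values are from MN_WT, and both orders were also seen in ES_WT RNA. By K27me3 enrichment the ES_WT medians were 0.765 and 0.87, 0.575 and 0.70, and 0.42 and 0.50 TPM. By K4me3 enrichment they were 0.33 and 0.375, 0.525 and 0.62, and 1.13 and 1.335 TPM. K27ac and K27me3 regions shared bases at 845 of the 1061 starts with both (79.6%), over a median of 561 bp. These groups are described across genes, which are not replicates, and carry no test.

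Promoters sorted by marks also differed in sequence, which the sorting did not use. Each gene counts once here. With more than 1 listed start its ratio is the mean over its windows, and a word counts if any window holds it. The ratio of CpG observed over expected in the 300-base window had a median of 0.81 at starts with K4me3, K27ac and K4me1, 0.73 with K27me3 added, 0.59 with K4me3, K4me1 and K27me3, 0.24 with K4me1 alone and 0.16 without a mark, against 0.58 over all 16896 promoters. Of the 8155 promoters with a ratio of at least 0.6, 3.41% had no mark, against 56.5% of the 8741 under it. The word TATAAA on either strand was in 7.39% of promoters with K4me3, K27ac and K4me1 and in 26.0% without a mark, against 14.4% of all. The word GGGCGG on either strand, the core of the Sp1 GC box, was in 80.3% of promoters with K4me3, K27ac, K4me1 and K27me3 and in 10.5% without a mark, against 50.3% of all. The word CCAAT on either strand was in 44.1% with K4me3, K27ac and K4me1, in 36.6% with K4me3, K4me1 and K27me3, and in 42.1% of all. Among genes without a mark, those with a mean of at least 1 TPM in MN_WT had a median ratio of 0.31, against 0.15 for those under it. The Eef1a1, Tubb3 and Mnx1 windows printed above have ratios of 0.70, 0.77 and 0.79, Crabp1 has 0.54 and Pou5f1 0.37.

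**Figure D5:**
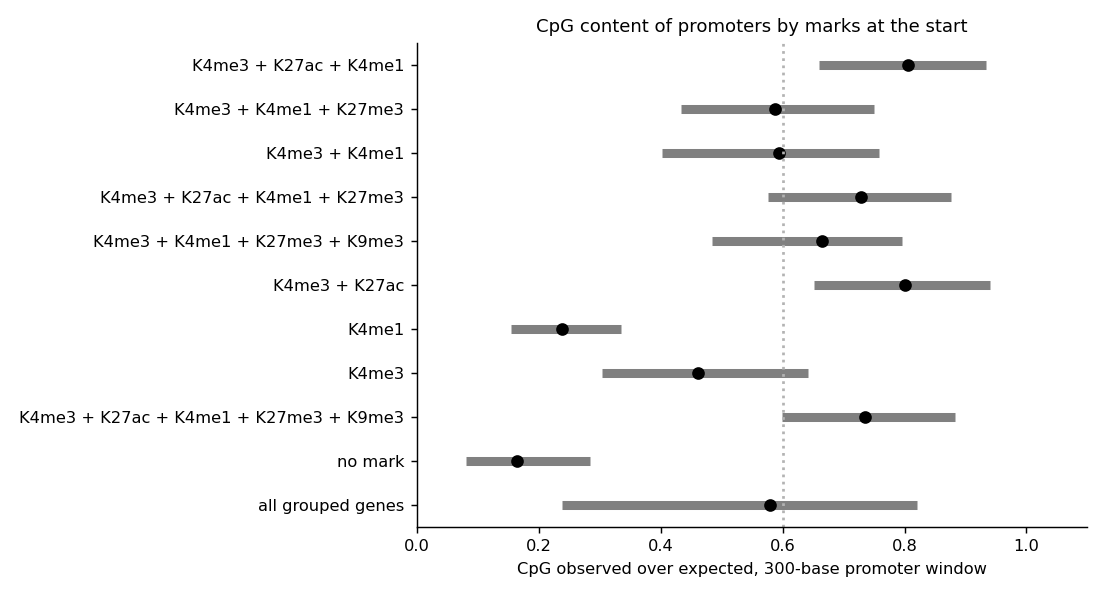
CpG observed over expected in the 300-base promoter window for the 10 combinations with at least 100 genes and for all grouped genes (bottom); points are medians over genes, bars run between the quartiles, and the dotted line marks 0.6. The 2 combinations with K27ac and without K27me3 have medians over 0.8, and starts without a mark have a median of 0.16.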

How the data were processed

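RNA-seq of 2 MN_WT and 2 ES_WT libraries and ChIP-seq of wild-type motor neurons were used. Per the labels' protocols, poly(A) RNA was made into stranded libraries and ChIP DNA into ThruPLEX libraries. The deposited RNA files give an expected count and a TPM for each gene, per the file headers. The submitters' processing notes name, without roles or versions, Trim Galore, MACS2, DESeq2, STAR, RSEM, Bowtie2, Subread, featureCounts and SAMtools, and the mm10 build. The authors deposited 1 list of regions per mark, in which each region has a fold enrichment ratio and a -log10 q. How the libraries of a mark were pooled is not stated, so the spread over ChIP replicates is unknown.

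A gene had a mark where a region overlapped by at least 1 base the 1 kb to either side of any listed RefSeq start (GRCm38.p6). Of the 16896 genes, 2713 had more than 1 listed start, and their marks can lie at different starts. Counts of starts or promoters are therefore counts of genes. Levels are medians and means of TPM over genes in each library. The rounded expected counts of all genes entered edgeR 4.0.16 (R 4.3.3) with TMM scaling, filterByExpr and the quasi-likelihood test, at a Benjamini-Hochberg adjusted p under 0.05. The residual degrees of freedom were 2, and the coefficient of biological variation was 0.13. DESeq2 1.42.0, other windows, thresholds and gene sets, and each library left out were tried as alternatives. With 2 libraries against 2, an exact permutation test of one value cannot go below 0.333, so levels carry no p. The scripts were tested on simulated data. Members and lists were chosen with earlier results of these data known. Genes named are the 3 with the highest TPM in MN_WT and the 3 largest rises and falls of each combination of at least 100 genes, the 2 highest of smaller combinations, the 5 highest with K9me3 or with K27me3 and no K4me3, up to 3 members of each list in each combination, and cell type markers. Replicates of a group differed by more than sampling noise.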

Additional observations from a re-analysis of the deposited data

How the results depend on the processing

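The median log2 fold change of genes with K27me3 beside the 3 active marks stayed above that of all tested genes under every alternative run, while that of genes with K4me3, K27ac and K4me1 lay between -0.08 and 0.10 with each library left out. Calls numbered 13362, and between 11427 and 13006 with each library left out. The number of genes with K4me3, K27ac and K4me1 (6033) was 3972 with 500 bp to each side and 4021 for genes with no other start within 2 kb. With regions of a -log10 q of at least 5, 351 genes had K4me3, K27ac, K4me1 and K27me3 (874 otherwise) and 121 had K4me3, K4me1, K27me3 and K9me3 (829 otherwise). Genes without a mark numbered 1359 where a region lay within 10 kb, a setting added after seeing the data, as was the set with 1 listed start. For K4me3, K27ac, K4me1 and K27me3, the median log2 fold change relative to all tested genes (1.93) was 1.60 with 2 kb and 2.29 with 500 bp to each side, 1.54 with either gene end as start, 2.30 at -log10 q of at least 5, 2.03 with 200 bp of overlap, 2.07 for genes with 1 listed start, 1.44 on the TPM scale, 1.86 with DESeq2, and 1.77 to 2.03 with each library left out. Its median log2(TPM + 1) in MN_WT (4.47) was 4.53 with 2 kb, 4.43 with 500 bp, 4.27 for all genes with a listed start, 4.33 with 1 start, 4.52 at a mean of at least 1 TPM and 4.41 with a pseudocount of 0.1. For K4me3, K4me1 and K27me3, 1874 genes without the K27ac list, the relative log2 fold change was 0.53 with either end, 0.35 at -log10 q of at least 5, 0.39 with no other start within 2 kb, 1.17 without K27ac, 0.10 on the TPM scale, 0.38 with DESeq2, and 0.37 to 0.59 with each library left out. Its median log2(TPM + 1) in MN_WT was, in the same order of settings, 1.74, 1.44, 1.67 and 3.15, with 1.70 at 2 kb, 1.64 at 500 bp, 1.49 for all genes with a listed start, 1.57 with 1 start, 2.60 at a mean of at least 1 TPM and 1.24 with a pseudocount of 0.1. The cause of these shifts was not tested. Same-numbered libraries did not deviate together (correlation -0.03 over 17479 genes), and with the replicate number as a block 6459 genes were called higher and 6617 lower. Depth in MN_WT (13.9 M expected counts) limits genes at low TPM.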
